A study of Mus musculus with 2 samples.

Results

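The C/EBP transcription factor genes Cebpa, Cebpb, Cebpd, Cebpe and Cebpg were examined in a list of Myb binding sites from Lin- bone marrow cells of WT mice, the lineage-depleted fraction that holds hematopoietic stem and progenitor cells. Binding was measured by ChIP-Seq with an antibody against Myb, and peaks were called against a rabbit IgG precipitate of the same kind of cells. There was 1 library of each, so no value below carries an estimate of the variation between mice. No other genotype or treatment was compared by ChIP-Seq here, and the question was which genes Myb occupies in normal progenitors. The expression data of the study, from sorted progenitors, were not used here, so the Lin- fraction, with a labelled purity above 80%, was not checked against marker genes. Members were found by position. A peak was counted for a gene when its summit, the base of highest pileup, lay in the gene body or within 100 kb of it in GENCODE vM21 (mm10). The rule gave 36 of the 25793 peaks. By gene there were 7 at Cebpa, 12 at Cebpb, 4 at Cebpd, 11 at Cebpe and 8 at Cebpg, with 6 peaks counted at both Cebpa and Cebpg, which are neighbors on chromosome 7.

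C/EBP proteins bind DNA as dimers through a basic leucine zipper and drive the production of granulocytes and monocytes. C/EBPα is required for progenitors to enter the granulocyte and monocyte lineages, C/EBPε for the later maturation of granulocytes, and C/EBPβ for the increase in granulocyte output during infection. C/EBPδ is an acute-phase factor of the same family, and C/EBPγ lacks an activation domain and acts mainly as a dimer partner. Myb keeps progenitors immature and proliferating and recruits the coactivator p300. Cebpa is known to be controlled in myeloid cells by its promoter and by an enhancer far downstream of the gene, and Cebpe by an enhancer a few kilobases downstream.

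The sequences on which the results turn are given first. They are mm10 sequence around summits, taken from the RefSeq GRCm38.p6 genome and read 5′ to 3′ on the strand of the named gene, with capitals for words of any of 5 motif families. The Myb words were CAACGG or CAACTG, and TAACGG or TAACTG. The C/EBP word was TTGCNNAA, the ETS words AGGAAGT and CGGAAGT, the RUNX word TGTGGT and the GATA words AGATAA and TGATAA, and each was searched on both strands, overlaps allowed. The first is the strongest C/EBP site, 6137 bp downstream of the Cebpe 5′ end (chr14:54705937-54706137, reverse strand). The next is the downstream Cebpa site with the most reads, at 37413 bp (chr7:35156606-35156806, forward strand), and after it comes its neighbor at 35313 bp (chr7:35154556-35154656, forward strand). The Cebpa promoter site follows (chr7:35119098-35119198, forward strand), and the last is the strongest distal site at Cebpb, 65164 bp downstream (chr2:167754029-167754129, forward strand). The first 2 windows reach 100 bp and the others 50 bp to each side of the summit.
Cebpe downstream site: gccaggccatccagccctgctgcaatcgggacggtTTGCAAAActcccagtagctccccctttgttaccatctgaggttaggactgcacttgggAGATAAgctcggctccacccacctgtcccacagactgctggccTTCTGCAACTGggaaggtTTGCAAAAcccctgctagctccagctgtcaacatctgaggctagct
Cebpa far downstream site: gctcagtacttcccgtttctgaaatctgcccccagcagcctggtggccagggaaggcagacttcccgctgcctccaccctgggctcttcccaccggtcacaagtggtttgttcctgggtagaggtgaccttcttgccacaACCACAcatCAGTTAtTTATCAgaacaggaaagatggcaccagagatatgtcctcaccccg
Cebpa neighboring site: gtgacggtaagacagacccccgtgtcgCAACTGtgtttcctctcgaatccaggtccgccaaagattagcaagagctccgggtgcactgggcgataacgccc
Cebpa promoter site: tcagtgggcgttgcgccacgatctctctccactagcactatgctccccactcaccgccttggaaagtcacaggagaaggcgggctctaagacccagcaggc
Cebpb downstream site: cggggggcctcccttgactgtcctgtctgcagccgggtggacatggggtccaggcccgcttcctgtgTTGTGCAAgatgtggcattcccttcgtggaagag

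The authors' fold enrichment is the Myb pileup at the summit, scaled to the IgG depth, plus 1, over the local IgG level plus 1. It ranged from 2.97 to 17.4 over the 36 peaks, around a median of 4.42. The median of the whole list was 4.51. A level of 5.95-fold was reached by 8 of the 36 peaks, or 22.2% (exact Clopper-Pearson 95% interval, 10.1% to 39.2%), and by 25.1% of the list. A q-value above 0.05 was found at 0 of the 36 peaks (exact interval, 0% to 9.74%) and at 7.24% of the list. The interval includes the share of the list, so the peaks were not set apart by this limit. The Myb reads at each summit, recovered from the deposited values, numbered 12 to 89 with a median of 20, and 17 of the 36 summits had fewer than 20. The IgG background at these summits was 1.5 to 6 reads at the depth of the IgG library. Most peaks at C/EBP genes were therefore of ordinary strength for this list, and 1 stood far above the rest.

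**Figure D1:**
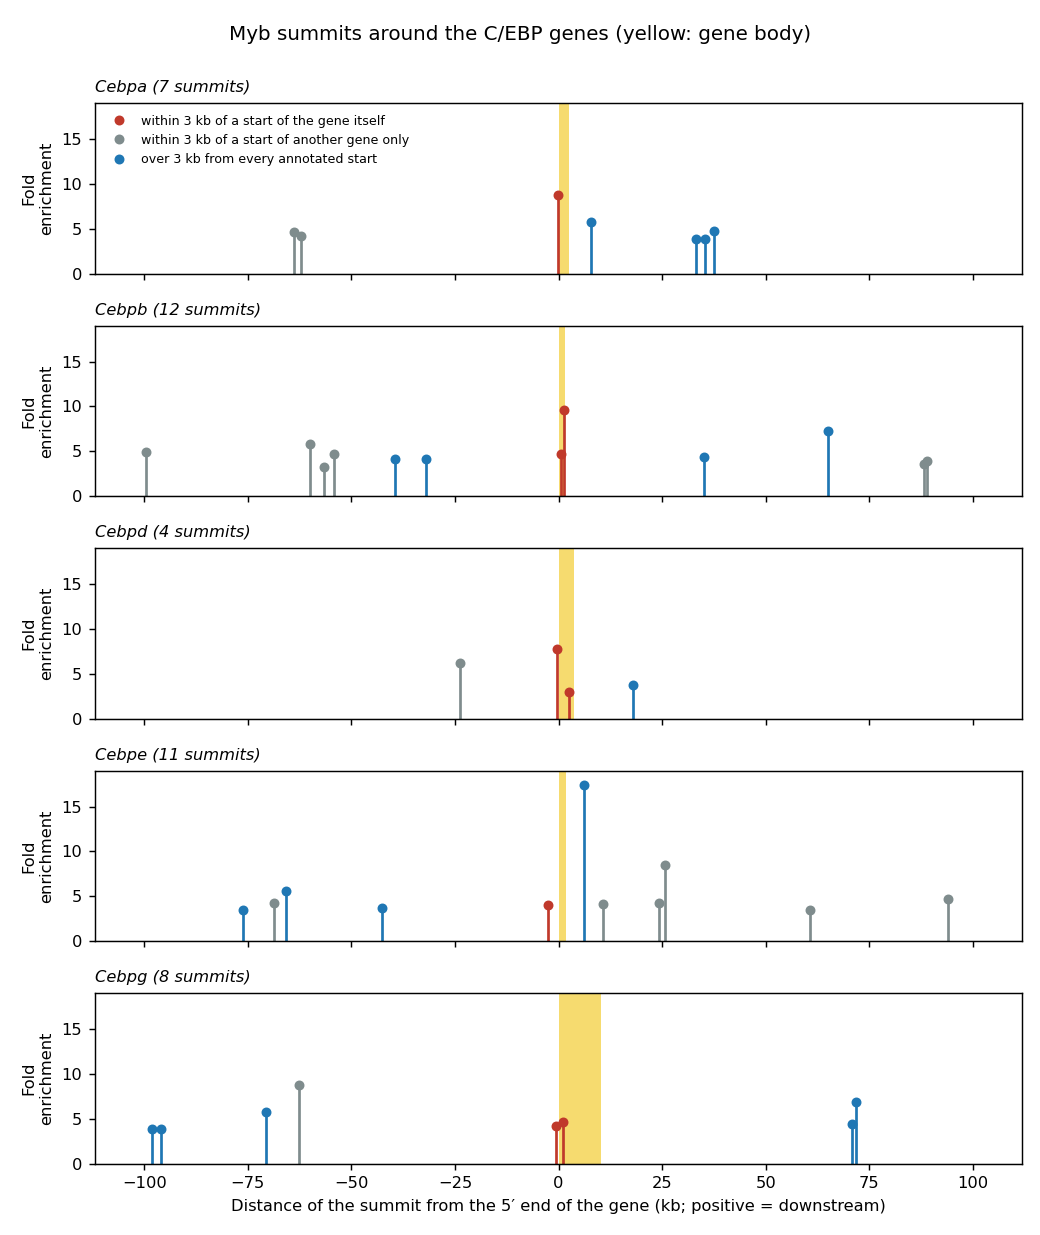
Fold enrichment over IgG of each Myb summit (vertical axis) against its distance in kb from the 5′ end of each C/EBP gene (horizontal axis, positive downstream), with colors for the position relative to annotated starts and the gene body in yellow. The summit 6137 bp downstream of Cebpe reaches 17.4-fold, and the others are between 2.97-fold and 9.57-fold.

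Each of the 5 genes had a Myb summit within 100 kb, which was true of 76.6% of the protein-coding genes. Each also had a summit within 3 kb of one of its own annotated starts, against 39.9% of the protein-coding genes. Both shares are backgrounds for a family of 5 genes, and no test was made. In number of summits, as many as the 12 at Cebpb were found at 13.7% of the protein-coding genes, as many as the 11 at Cebpe at 16.6%, the 8 at Cebpg at 27.8%, the 7 at Cebpa at 33.0% and the 4 at Cebpd at 52.0%. The windows differed in what else they held. The start sites of 8 other protein-coding genes lay in the Cebpe window, 3 in each of the windows of Cebpa and Cebpb, and 1 in each of those of Cebpd and Cebpg. By the strongest peak the order was different, and Cebpe came first. A peak of at least 17.4-fold was present in the window of 2.12% of the protein-coding genes, whereas the strongest peaks of the other 4 genes, from 7.73-fold to 9.57-fold, were matched or exceeded in 20.9% to 34.8% of them.

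**Figure D2:**
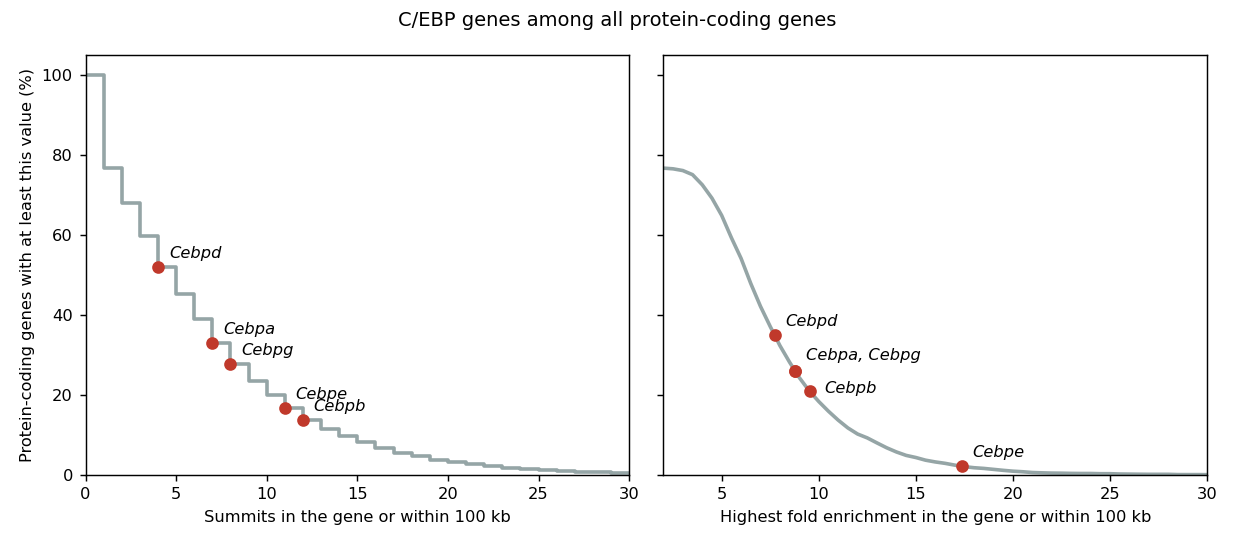
Share of all protein-coding genes (vertical axis, %) with at least the given number of summits (left) or the given highest fold enrichment (right) in the gene or within 100 kb, as gray lines, with the 5 C/EBP genes as red points. Cebpb and Cebpe are highest by number, with 12 and 11 summits, and Cebpe is highest by strength. Each of these counts includes 6 summits at promoters of other genes only.

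Cebpa, on the forward strand of chromosome 7 from 35119293 to 35121928 (ENSMUSG00000034957.10), is the family member needed at the entry to the myeloid lineages. Its strongest peak was at the promoter, from 35117980 to 35119568, with the summit 145 bp upstream of the 5′ end. There the fold enrichment was 8.77 on 31 reads (exact Poisson 95% interval, 21.1 to 44.0). This summit also lies in an intron of Gm45091, a noncoding RNA gene annotated antisense to Cebpa. The gene body itself held no summit.

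Downstream of Cebpa there were 4 summits, and all were intergenic and more than 3 kb from any annotated start. The nearest, 7883 bp from the 5′ end, had 5.75-fold enrichment on 20 reads (12.2 to 30.9). The other 3 lay close together far downstream. The summit at 33307 bp and the summit at 35313 bp had the same values, 3.92-fold on 14 reads (7.65 to 23.5). The summit at 37413 bp had 4.82-fold on 30 reads (20.2 to 42.8), in a peak 1475 bp wide from 35156449 to 35157923. Its read number was as high as that of the promoter within counting error, but the IgG background there was 4 reads against 1.83 at the promoter, and its fold enrichment was lower. The peak with the highest fold enrichment downstream of Cebpa was thus the one at 7883 bp, while the one with the most reads and the highest −log10 q-value, 7.82 against 6.72, was the one at 37413 bp. The read intervals of all 4 downstream summits overlapped. No interval was computed for the IgG background, so the counting error of the fold enrichments is not fully given. The protein-coding start nearest to the summits at 35313 bp and 37413 bp was that of Slc7a10, an amino acid transporter gene, at 31779 bp and 29679 bp, and that of Cebpa was farther, at 35303 bp and 37403 bp.

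In the far downstream window printed above, a Myb word, read as CAGTTA on the printed strand, spans positions 49 to 54 from the summit. It follows a RUNX word at positions 40 to 45 and precedes a GATA word at positions 56 to 61. This peak held 3 Myb words in all, and none was within 50 bp of the summit by the count used below, since the nearest runs past that limit. The neighboring summit at 35313 bp had a Myb word 21 bp away and another 96 bp away. Here and below, such distances are measured to the third base of the word on the forward strand of the chromosome. At the promoter the nearest Myb word was 178 bp from the summit.

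Cebpe (chromosome 14, 54710360 to 54712174, reverse strand, ENSMUSG00000052435.7) encodes the factor of late granulocyte maturation and held the strongest site of the family. The peak lies downstream of the gene, from 54705135 to 54706980, and is 1846 bp wide. Its summit is 6137 bp from the 5′ end in intergenic sequence, with 17.4-fold enrichment, a −log10 q-value of 60.9 and 89 reads (71.5 to 109.5) over an IgG background of 3 reads. In the whole list it ranked 102 of 25793 by fold enrichment, 34 by q-value and 27 by reads, and among the 10948 peaks more than 3 kb from any start it ranked 48 by fold enrichment. Its read interval lay above that of each of the other 35 peaks, the highest of which was 36 reads (25.2 to 49.8). The start of Cebpe was the nearest protein-coding start, and the next, that of Gm29776, was 7204 bp away, so the margin in distance was small. The windows of 9 protein-coding genes contain this summit.

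The sequence under this summit held words of 3 families within 50 bp. A GATA word ends 1 bp before the summit. A C/EBP word, read as TTCTGCAA, spans positions 37 to 44, and a Myb word, CAACTG, spans positions 42 to 47, so that the words share the bases at positions 42 to 44. Additional C/EBP words, both read as TTGCAAAA, span positions −65 to −58 and 55 to 62. The whole peak held 4 Myb words, at 45, 324, 360 and 543 bp from the summit. A C/EBP word at a C/EBP gene is a description of its letters, and binding of C/EBP proteins was not measured here.

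Within 3 kb of its start Cebpe was weakly marked by comparison, and no summit lay within 1 kb. The summit nearest to the 5′ end, 2513 bp upstream, had 3.99-fold enrichment on 13 reads (6.92 to 22.2), an interval below that of the downstream site. Of the other 9 summits in the window, 4 were upstream, between −42.5 kb and −76.3 kb, in or near the amino acid transporter gene Slc7a8, with 3.43-fold to 5.63-fold enrichment. The other 5 were downstream and within 3 kb of starts of other genes. The strongest of them, 8.54-fold on 32 reads (21.9 to 45.2), was 25709 bp from the Cebpe 5′ end and 150 bp from a start of Acin1, which encodes a nuclear protein of apoptosis and splicing. The summit at 94016 bp, with 4.72-fold, was 136 bp from a start of the proteasome gene Psmb5. The count of 11 for Cebpe thus included 6 summits at promoters of other genes only.

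**Figure D3:**
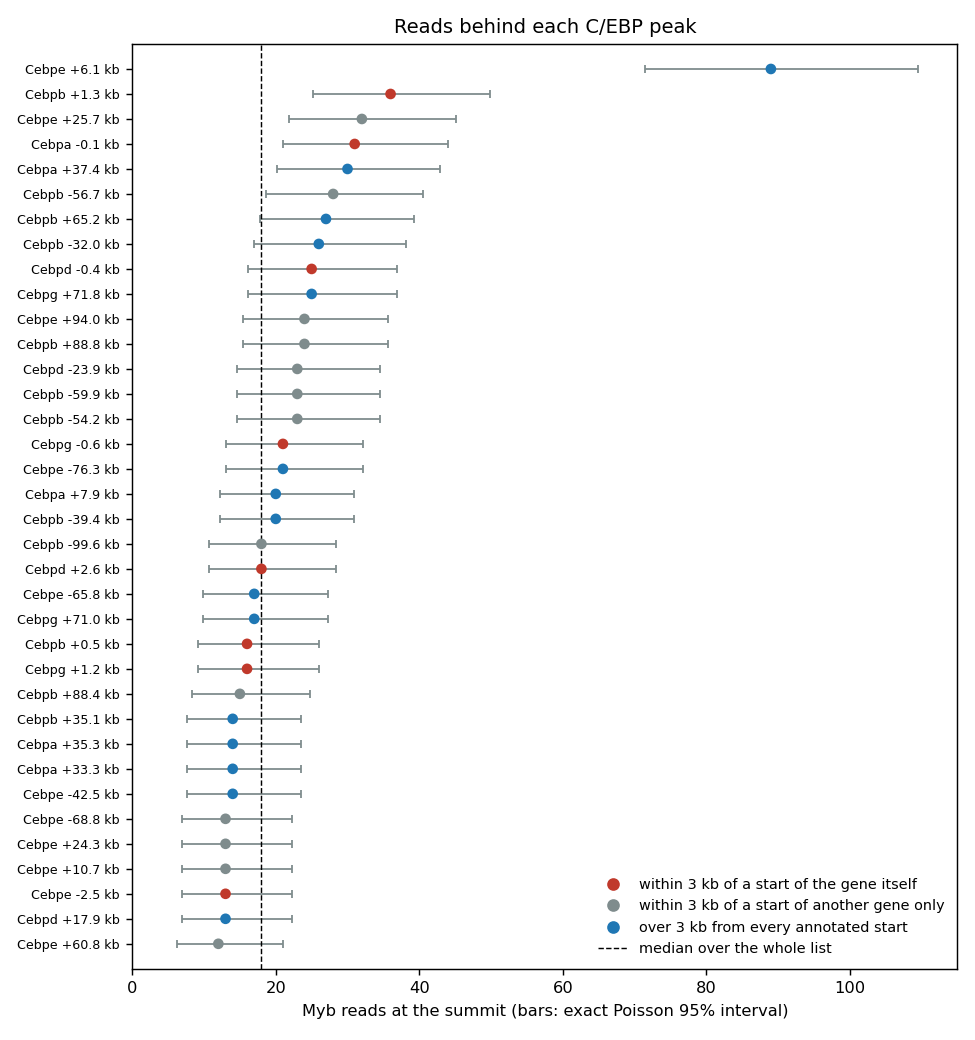
Myb reads recovered at each of the 36 summits (horizontal axis) with exact Poisson 95% intervals as bars, ordered by read number and named by gene and distance from its 5′ end in kb (vertical axis). The dashed line is the median of the whole list, 18 reads, and the site 6.1 kb downstream of Cebpe, with 89 reads, has an interval above all others.

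Cebpb, on the forward strand of chromosome 2 from 167688915 to 167690418 (ENSMUSG00000056501.3), encodes the factor of stress-induced granulocyte production in a single exon. It was the only member with more than 1 summit in its body. The summit at 490 bp, in the coding sequence, had 4.73-fold enrichment on 16 reads (9.15 to 26.0). The summit at 1273 bp, in an annotated UTR, had 9.57-fold on 36 reads (25.2 to 49.8), in a separate peak from 167689941 to 167691015. This was the second strongest peak of the family, and a Myb word, TAACTG, was 14 bp from the summit. The read intervals of these summits overlapped only at their ends. A transcript of the neighboring gene Tmem189 is annotated to start inside Cebpb on the other strand, 417 bp and 366 bp from these summits, and it is the nearest annotated start to both.

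Outside the gene, the strongest Cebpb site was intergenic, 65164 bp downstream, from 167753544 to 167754423. It had 7.26-fold enrichment on 27 reads (17.8 to 39.3). Its window held a C/EBP word, read as TTGTGCAA, but there was no Myb word in the whole peak. The protein-coding start nearest to it was that of Tmem189, at 64257 bp, and that of Cebpb was slightly farther. Another distal summit, 35056 bp downstream in an intron of the noncoding gene A530013C23Rik, had 4.37-fold on 14 reads (7.65 to 23.5). Summits near starts of the noncoding gene Gm14321, at 88352 bp and 88839 bp, had 3.55-fold and 3.89-fold. Upstream, 3 summits with 3.22-fold to 5.84-fold were within 3 kb of starts of Ube2v1, a ubiquitin-conjugating enzyme variant. The summits at −39.4 kb and −32.0 kb were intronic in Tmem189 and the overlapping gene Gm20431, with 4.18-fold and 4.2-fold. The summit at −99.6 kb, near a pseudogene start, had 4.95-fold. The count of 12 for Cebpb thus included 6 summits at promoters of other genes only. At none of the 12 was the nearest protein-coding start that of Cebpb.

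Cebpd, on the forward strand of chromosome 16 from 15887286 to 15891031 (ENSMUSG00000071637.5), encodes the acute-phase member and had the fewest summits. At its promoter, from 15886589 to 15887698, the summit 355 bp upstream had 7.73-fold enrichment on 25 reads (16.2 to 36.9). A summit at 2603 bp, in a UTR of the gene, had 2.97-fold on 18 reads (10.7 to 28.4) over an IgG background of 4 reads, the lowest fold enrichment of the family. The only distal summit, 17942 bp downstream in an intron of Spidr, had 3.73-fold on 13 reads (6.92 to 22.2). The remaining one, 23905 bp upstream, was 12 bp from a start of Mzt2, a component of the microtubule-nucleating complex, and had 6.23-fold. A Myb word lay within 50 bp of 3 of the 4 summits, the promoter being the exception, where the nearest was 168 bp away. Read intervals of all 4 overlapped.

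Cebpg (chromosome 7, 35046422 to 35056573, reverse strand, ENSMUSG00000056216.9) encodes the dimer partner without an activation domain and had peaks near the median of the list on both sides of its start. The summit 566 bp upstream had 4.16-fold enrichment on 21 reads (13 to 32.1), and the summit at 1180 bp, in an intron and 547 bp from another annotated start of the gene, had 4.63-fold on 16 reads (9.15 to 26.0). Neither peak held a Myb word. The strongest peak in its window, 8.77-fold, was the Cebpa promoter at −62.6 kb, 145 bp from the start of that gene. The peaks found for Cebpg alone were both in an intron of Pepd, a dipeptidase gene, at 70964 bp and 71795 bp downstream, with 4.48-fold on 17 reads (9.90 to 27.2) and 6.86-fold on 25 reads (16.2 to 36.9). The limit of 100 kb fell close to summits at Cebpg and Cebpb. The far downstream Cebpa summit was 100133 bp from Cebpg and was not counted for it, while the last one counted, at −98.0 kb, had 3.92-fold. At the other genes the last summit inside the limit was 23905 to 99607 bp from the gene and the first outside it 104478 to 173971 bp, with 4.63-fold to 6.23-fold inside and 4.47-fold to 8.16-fold outside. The summit at 99607 bp is that of Cebpb, and it was counted by a small margin.

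Side by side, the promoter summits nearest to the 5′ end ran from 8.77-fold at Cebpa and 7.73-fold at Cebpd to 4.73-fold at Cebpb, 4.16-fold at Cebpg and 3.99-fold at Cebpe. The summit at Cebpe is 2513 bp from the 5′ end, and the others are 145 to 566 bp from it. The read intervals of Cebpa and Cebpe overlapped at their ends, 21.1 to 44.0 against 6.92 to 22.2, and those of neighbors in this order overlapped more widely. The place of Cebpb depends on taking the nearest summit. Its other summit within 3 kb of its start, at 1273 bp, had 9.57-fold, above all of these. Of the 36 peaks, 15 were more than 3 kb from every annotated start, or 41.7% (25.5% to 59.2%), against 42.4% of the list. Their median fold enrichment was 4.37, and that of the 21 promoter peaks was 4.63. Over the whole list these medians were 4.48 and 4.54.

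**Figure D4:**
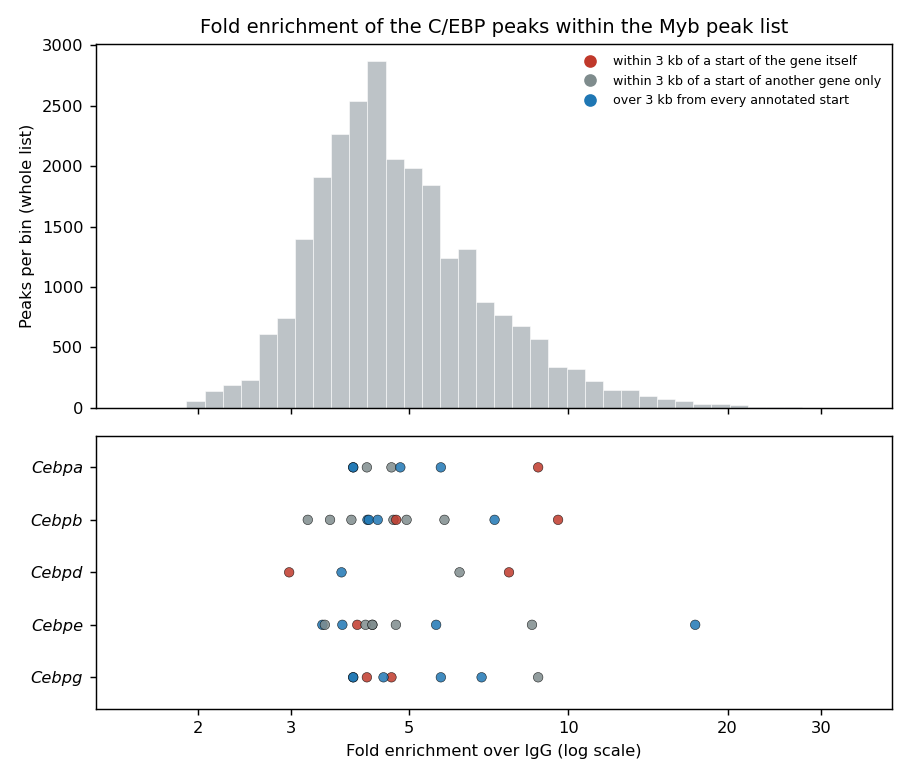
Number of peaks per bin of fold enrichment in the whole list (top, gray bars) and the fold enrichment of each peak at the 5 C/EBP genes (bottom, 1 row a gene, colors for the position relative to annotated starts), on a shared log axis. Most points fall under the bulk of the list, around its median of 4.51, and a distal point of Cebpe is at 17.4.

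Motif words within 50 bp of the summit were counted to see what the sites shared. A Myb word was present at 8 of the 36 summits, or 22.2% (10.1% to 39.2%), against 16.7% of all summits. The order was not the same under wider searches, with 30.6% against 30.0% within 100 bp and 55.6% against 58.6% anywhere in the peak. The 8 summits were 1 at Cebpb, 3 at Cebpd, 3 at Cebpe, and 1 at 35313 bp downstream of Cebpa. A C/EBP word was present at 3, at Cebpb and Cebpe, against 6.16% of all summits. A GATA word was present at 6 summits, against 13.8%, an ETS word at 1, against 6.4%, and a RUNX word at 1, against 9.79%. The exact intervals of these shares over 36 peaks each included the share of the whole list. At least 1 of the 5 families was present at 15 of the 36 summits, against 41.8% of the list. Among the summits with a Myb word, fold enrichment ran from 2.97 to 17.4.

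**Figure D5:**
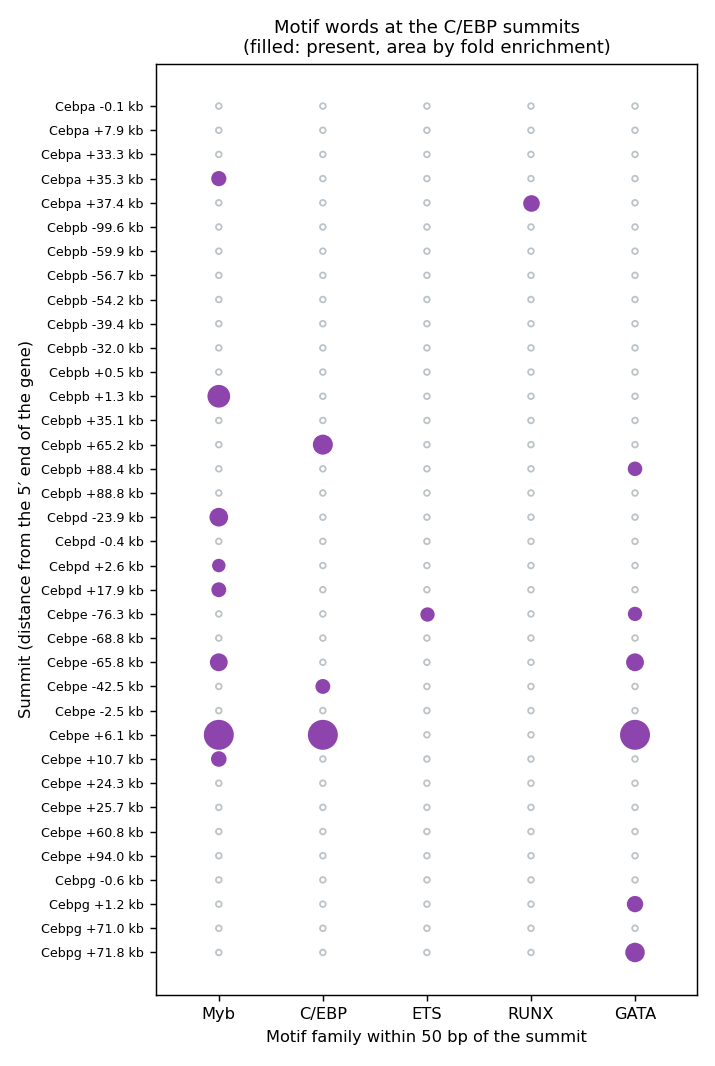
Presence (filled) or absence (open) of words of 5 motif families within 50 bp of each of the 36 summits (vertical axis, gene and distance from its 5′ end in kb), with the area of filled points in proportion to fold enrichment. The Cebpe site at 6.1 kb is the only one with words of 3 families.

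Genes that work with C/EBP proteins were read by the same rule. Among 12 partners and modulators, 12 had a summit within 100 kb and 9 a promoter peak, beside 76.6% and 39.9% of all protein-coding genes. The 12 were related leucine zipper factors, the Trib genes and Cop1. The highest fold enrichments in their windows were 16.1 at −4757 bp from Nfil3, 15.0 at Ddit3 and 12.0 at −56830 bp from Batf, which had no promoter peak. The Ddit3 summit, −557 bp from the start of this stress-induced C/EBP relative, had 64 reads. Among 13 myeloid genes known as C/EBP targets, all 13 had a summit within 100 kb and 9 a promoter peak, beside the same 76.6% and 39.9%. The highest values were at the myeloperoxidase gene Mpo, 16.6 at −67277 bp, and the repressor gene Gfi1, 15.2 at −33361 bp, followed by the adjacent protease genes Elane and Prtn3, which share a peak of 13.3 at 54724 bp and 66495 bp. It counts for both genes in the median, and their windows held 29 and 27 summits. The median of the strongest peak per gene was 9.13 for the partners and 10.6 for the targets. It was 8.77 for the 5 C/EBP genes and 6.34 for all protein-coding genes. Genes without a summit entered the last of these as 0, so it is lower than a median over genes with a summit. Every gene of the lists and of the C/EBP family had a summit. The 8.77 is the Cebpa promoter peak, which counts for both Cebpa and Cebpg.

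Beside other transcription factor families of blood, the C/EBP genes had a median of 8 summits per gene. This is the number at Cebpg, and 6 of its 8 summits were also counted for Cebpa. The median was 15 for the 4 RUNX genes (Runx1, Runx2, Runx3 and Cbfb), 7 for the 9 IRF genes and 3 for the 6 GATA genes. It was 4 for all protein-coding genes and 3 for those of up to 20 kb, both with genes without a summit counted as 0. The C/EBP genes are 1504 to 10152 bp long, so their windows held little gene body. Longer genes have longer windows, and the strongest summits of Runx1 and Runx2 were 110484 and 142386 bp from the 5′ end. Neither the counts nor the highest values of the families were adjusted for gene length. A promoter peak was present at all 4 RUNX genes, at 6 of the 9 IRF genes and at 4 of the 6 GATA genes, beside 39.9% of all protein-coding genes. The strongest site of the C/EBP family, 17.4-fold at Cebpe, was between the strongest of RUNX, 20.2-fold, and those of GATA, 15.6-fold, and IRF, 14.5-fold. These families are small and were not tested against each other.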

How the data were processed

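Myb and IgG ChIP-Seq libraries of WT Lin- cells (1 library each) were grouped by sample title, and only the Myb peak list was analysed. Per the submitters' processing notes, reads were trimmed with Cutadapt 1.15, aligned to mm10 with BWA 0.7.13 and deduplicated with Picard, and the authors called narrow peaks with MACS2 2.1.1.20160309 against IgG, keeping those shared by pseudo-replicates of the single library. Reads of low mapping quality or in blacklisted regions were removed. The stated q-value limit of 0.05 is not met by 7.24% of the deposited peaks. The authors deposited fold enrichment, a ratio with the Myb pileup scaled to IgG depth and 1 added to both sides, and p-values and q-values as −log10. A deposited score and the summit offset complete each row. The score was not used.

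Total depth is not given in the sources used here. Reads at each summit were recovered as the whole number that gives the fold enrichment and the Poisson p-value together, with a pileup scale of 0.769, which held in 100% of the rows within 0.0005 on the log10 scale. The step was tested on simulated data. The IgG background was obtained in the same step. Poisson and Clopper-Pearson intervals (95%, scipy 1.17.1) cover counting error only, of Myb reads and of peaks, and not of the IgG background. The Clopper-Pearson intervals take the peaks as independent, which neighboring peaks at a gene may not be. Coordinates are 1-based, and no peak end ran past a GRCm38 chromosome. Distances were measured from the GENCODE vM21 gene 5′ end. No test was made across peaks or genes, which are not replicates. Named were the 5 members with each summit, and from 2 lists the 3 genes with the highest fold enrichment, with 4 where a peak was shared. The members and lists were chosen with earlier results of these data known.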

Additional observations from a re-analysis of the deposited data

How the results depend on the processing

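Alternative settings were tried singly. Of the 39 values they gave, 28 stayed within 1.5 times the count, within the interval or on the same peak, and 11 did not. Some of the 28 could not have moved. The q-value limit of 0.05 removed none of the C/EBP peaks, and all downstream Cebpa summits already lay within 50 kb. When only peaks at or above 5 in −log10 q-value were kept, the C/EBP genes had 15 peaks, 3 genes had a promoter peak and the median fold enrichment was 6.23, as a filter on strength leaves fewer and stronger peaks. The number of peaks was 22 within 50 kb, 58 within 200 kb and 10 when the nearest protein-coding start had to be that of a C/EBP gene, which follows from the smaller or larger regions counted. With a promoter window of 1 kb, 4 of the 5 genes had a promoter peak, Cebpe being the exception, and with 500 bp, 3 did. The share of all protein-coding genes was not computed at these windows or at the −log10 q-value limit of 5. These counts of genes therefore have no background beside them. The share of summits with a Myb word was 44.4% with AACNG and 55.6% anywhere in the peak, where more letters match, against 54.3% and 58.6% of the list, so that the C/EBP share was then the lower one. The strongest peak downstream of Cebpa was the one at 37413 bp, with 4.82-fold, when strength was taken as the −log10 q-value or as reads. No paired analysis was possible because each group has 1 library. Depth limits the single peaks, most of which rest on fewer than 30 reads, and differences between mice were not measured.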

Other observations

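The word arrangements at both downstream sites were counted over all 25793 summits, after the sites had been seen. Myb and C/EBP words that overlap, as at the Cebpe site, were present within 100 bp of 138 summits, or 0.535%, and 3 or more C/EBP words within 100 bp of 28 summits, or 0.109%. Words of Myb, RUNX and GATA together, as at the far downstream Cebpa site, were present within 100 bp of 495 summits, or 1.92%. Each arrangement occurred at 1 of the 36 C/EBP peaks. These are counts of letters, and binding by factors other than Myb was not measured.

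At Cebpb, 4 of the 12 peaks were distal, and the strongest of these, 65164 bp downstream, ranked 1501 among the 10948 distal peaks of the list by fold enrichment.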
